A study of Mus musculus with 8 samples.

Results

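The solute carriers are the genes whose symbols begin with SLC and a family number. Every array spot that the platform annotation gives 1 such symbol was taken: 106 spots for 49 genes, out of 6610 spots with 1 named gene, 2922 named genes and 9984 spots in all. They fall into 18 mitochondrial carriers of family SLC25 (40 spots), 1 hexose carrier of family SLC2 (SLC2A5, 4 spots), 5 amino acid carriers (10 spots) and 23 carriers of other families (48 spots). The last 2 symbols, SLC2A4RG and SLC7A6OS, match by spelling only. SLC2A4RG is named as a regulator of the glucose carrier gene SLC2A4, and SLC7A6OS lies on the opposite strand of SLC7A6, so 47 of the 49 genes encode carriers. Each gene had 2 spots, except SLC2A5, SLC25A3, SLC25A37 and SLC44A2, which had 4. A further spot pair shared by PAIP2 and SLC23A1, and the pair of SLCO4A1, fell outside the rule.

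The study set C2C12 cells, an established mouse myoblast line, in medium conditioned by CAPAN-1 cells (MBC) beside the same line in control medium (MBN). CAPAN-1 is a human pancreatic cancer cell line. RNA was taken from MBC at 14 h and 24 h and from MBN at 0 h, 14 h and 24 h, and each of 4 comparisons was hybridised on 2 arrays with the dyes crossed. At matched hours the comparisons were MBC14 over MBN14 and MBC24 over MBN24, and against 0 h they were MBC14 over MBN0 and MBC24 over MBN0, the numbers being hours. No group carried a transgene, a deletion or a drug, per the labels, and each rests on 1 cell line. The labels call the array a human one with muscle genes, and mouse RNA was hybridised to it, so a signal can come from the mouse ortholog or from a similar transcript. The table holds ratios only, so levels and the identity of the cells could not be checked against marker genes. In the matched-hour test described below, 0 of 4 measured myoblast markers, 0 of 2 epithelial markers and 0 of 4 fibroblast markers passed, where 5.20% of all genes did. Against 0 h some markers were far from 0 in the Cy5-over-Cy3 reading. By the size rule explained below, 2 of 4 fibroblast markers were lower in both comparisons, where 2.87% of all genes were. TAGLN had -2.25 and -2.57 and COL1A1 -1.50 and -2.25, while COL1A2 had -0.41 and -0.56 and DCN 0.67 and 0.49. TAGLN also had -1.06 and -1.23 at the matched hours. Of the epithelial markers, S100P had -1.51 and -1.94 against 0 h and SPINT2 1.09 and 0.35. The myoblast marker DES had -1.11 and -0.94 against 0 h, and the other myoblast markers lay between -0.40 and 0.39 there. At the matched hours MYOD1 had 0.78 and 1.47, NCAM1 -0.23 and 1.91, MYF6 0.40 and 0.77, and DES -0.11 and -0.75. The part of these markers in the SLC values was not tested.

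Solute carriers are membrane proteins that move sugars, amino acids, nucleotides, metals and ions along gradients or in exchange for one another, without splitting ATP themselves. The SLC25 family sits mostly in the inner mitochondrial membrane and links the matrix with the cytosol. It brings in phosphate, ADP, iron, fatty acyl groups and amino acids and sends out ATP. Muscle depends on these carriers because contraction draws on ATP made in mitochondria, and growing myoblasts depend on plasma membrane carriers for amino acids and sugars.

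Each spot has 1 signed deposited score on each array, of unstated scale, and these were centred here on each array's median. Before centring, the array medians lay between -0.06 and 0.10 and the SDs between 1.34 and 1.58. Array A carried the conditioned RNA in Cy5 and array B carried it in Cy3. As deposited, arrays A and B correlated below 0 over the 2922 genes in all 4 comparisons (r = -0.32, -0.28, -0.13 and -0.27 in the order above, across genes, which are not independent replicates). Over the 49 SLC genes r was -0.30, -0.14, -0.36 and -0.51, and 27 to 30 of the 49 had opposite signs on the 2 arrays. Array B was therefore turned before averaging, which takes the scores as ratios of the red to the green dye, the Cy5-over-Cy3 reading. In the other reading, conditioned over control, array B is used as deposited. The labels do not settle the choice, so both are given for the main results, and a mean with no reading named is of the Cy5-over-Cy3 reading. None of the means so printed for SLC25A15, SLC25A20, SLC25A26, SLC25A34, SLC26A6, SLC20A2, SLC24A3, SLC33A1, SLC39A3, SLC6A8, SLC66A3 and SLC7A6OS passed the size rule in the other reading. In each reading a positive value is taken to mean higher in conditioned medium, which is not certain. The readings exclude one another, so a sign can hold only if its own reading does. The part of dye effects of single genes in the scores was not tested. The 2 arrays of a comparison hold the same 2 RNAs, so they count as 1 replicate and an SD over them (n = 2 arrays) is technical.

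**Figure D1:**
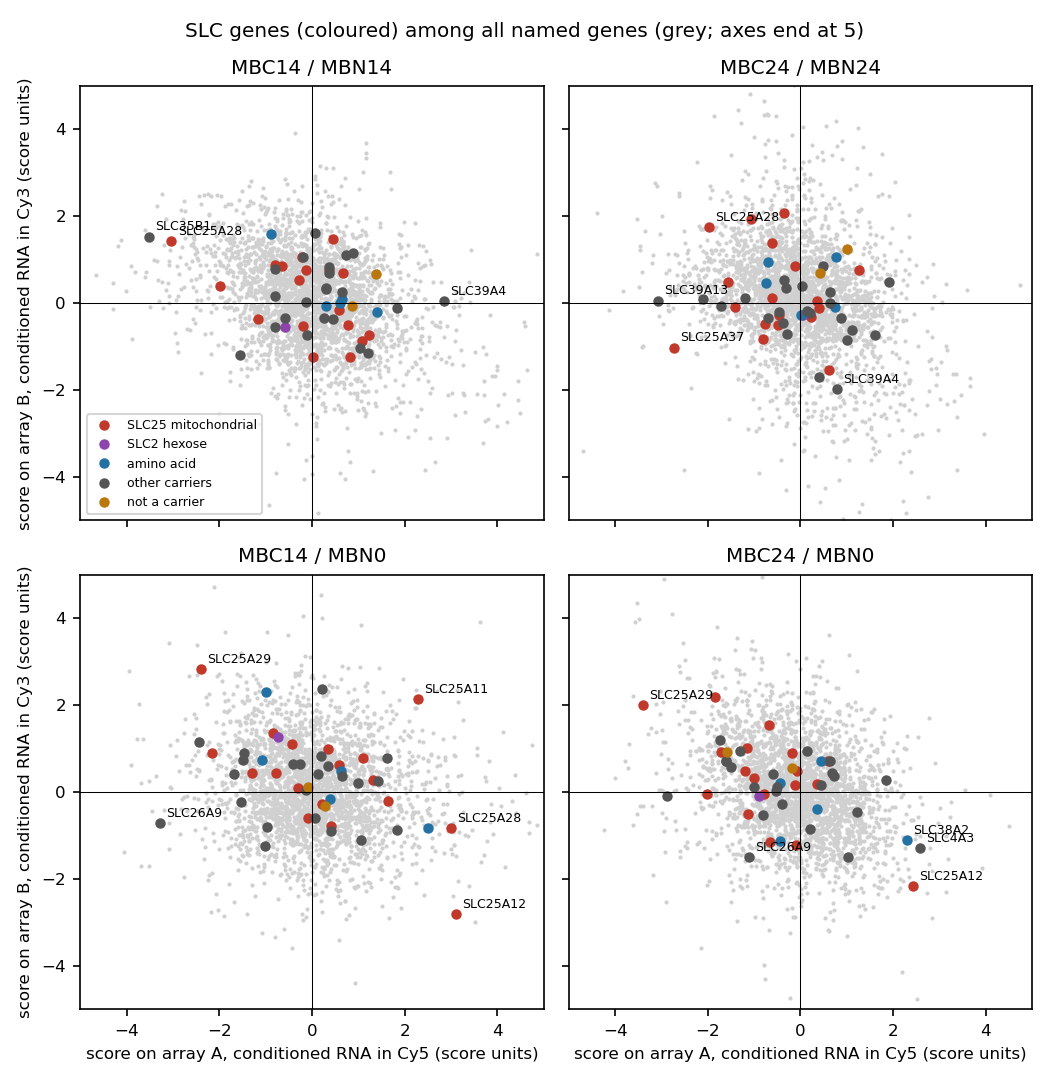
Centred deposited score on array B (vertical axis, score units) against array A (horizontal axis, score units) in each comparison, with all 2922 genes in grey, the SLC genes in colour by class, and the axes ending at 5 score units. Genes in the upper left and lower right have opposite signs on the crossed-dye arrays, as 27 to 30 of the 49 SLC genes did, and SLC25A12 and SLC25A29 lie far out in those corners in the comparisons with 0 h.

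The promoters of 4 mouse counterparts are printed because the results turn on these genes. SLC25A28 and SLC35B1 passed the only test the design allows, and SLC25A12 and SLC25A29 lay at the ends of the ranking against 0 h in the Cy5-over-Cy3 reading. The sequences are from RefSeq on GRCm38.p6, 300 bases each, from 250 before to 50 after the gene's start, 5′ to 3′ on the strand of the gene. Capitals mark CANNTG, the E-box core that myogenic and other bHLH factors bind, and GGGCGG, the GC box of Sp factors, each searched on both strands with no overlap between matches.
Slc25a28, chr19:43674832-43675131, minus strand: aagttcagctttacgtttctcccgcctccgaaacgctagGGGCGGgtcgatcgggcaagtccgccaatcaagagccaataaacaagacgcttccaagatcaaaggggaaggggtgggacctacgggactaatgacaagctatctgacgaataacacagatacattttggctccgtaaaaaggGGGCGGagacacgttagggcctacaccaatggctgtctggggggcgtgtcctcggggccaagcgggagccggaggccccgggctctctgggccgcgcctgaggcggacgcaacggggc
Slc35b1, chr11:95384606-95384905, plus strand: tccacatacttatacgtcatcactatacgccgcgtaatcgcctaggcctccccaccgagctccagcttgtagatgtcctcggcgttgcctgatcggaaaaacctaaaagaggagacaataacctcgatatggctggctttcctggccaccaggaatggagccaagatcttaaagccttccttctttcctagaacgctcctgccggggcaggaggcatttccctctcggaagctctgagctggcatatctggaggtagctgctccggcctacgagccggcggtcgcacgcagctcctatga
Slc25a12, chr2:71367706-71368005, minus strand: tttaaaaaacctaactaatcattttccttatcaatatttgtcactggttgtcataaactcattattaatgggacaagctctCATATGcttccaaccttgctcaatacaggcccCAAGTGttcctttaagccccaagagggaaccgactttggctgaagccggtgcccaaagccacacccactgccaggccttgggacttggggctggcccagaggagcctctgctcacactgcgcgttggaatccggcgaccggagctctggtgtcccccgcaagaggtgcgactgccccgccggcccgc
Slc25a29, chr12:108835827-108836126, minus strand: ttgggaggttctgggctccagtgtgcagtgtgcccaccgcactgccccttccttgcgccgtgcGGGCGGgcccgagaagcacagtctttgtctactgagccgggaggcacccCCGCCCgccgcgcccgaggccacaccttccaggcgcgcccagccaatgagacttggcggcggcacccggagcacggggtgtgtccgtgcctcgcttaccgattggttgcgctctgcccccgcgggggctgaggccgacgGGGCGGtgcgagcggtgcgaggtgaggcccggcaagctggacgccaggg
CANNTG occurs 2 times in the Slc25a12 window and 0 times in the others, while 72.3% of all 32851 promoters of this length hold it. GGGCGG occurs 2 times in the Slc25a28 window, 3 times in that of Slc25a29 and 0 times in the other two, and 35.7% of all promoters hold it. The GC content was 60.0% for Slc25a28, 55.7% for Slc35b1, 54.3% for Slc25a12 and 72.3% for Slc25a29. Of the 49 symbols, 44 matched a mouse gene by symbol and 1 by a synonym, 4 did not match, and 37 had a promoter in the table.

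The one test of conditioned against control medium asked for a shift common to 14 h and 24 h, with limma on the array-averaged scores of the 2 matched-hour comparisons, which share no RNA. It is two-sided, adjusted by Benjamini-Hochberg over 2922 genes, and rests on 2 values per gene. Separate cultures are not mentioned in the labels. The p-values measure the spread between the 14 h and 24 h values, which may be technical or hold a change with time. Limma draws the variance of each gene towards that of all genes. In the Cy5-over-Cy3 reading 2 of 49 SLC genes fell and 0 rose (4.08%), while over all genes 5.20% were called, 3.08% higher and 2.12% lower. Before adjustment 10 SLC genes (20.4%) had p under 0.05, against 22.8% of all genes. Both SLC shares were near those of all genes. In the conditioned-over-control reading 0 of 49 SLC genes and 0.00% of all genes were called by limma. There, 3 SLC genes (SLC25A37, SLC2A4RG and SLC35B1), 6.12% of 49, had an unadjusted p under 0.05, beside 3.11% of all genes.

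SLC25A28, mitoferrin-2, which brings iron into mitochondria, scored -3.04 on array A and 1.42 on array B of MBC14 over MBN14, and -1.98 and 1.75 in MBC24 over MBN24. All 4 matched-hour arrays thus give a lower score in conditioned medium in the Cy5-over-Cy3 reading. Its mean was -2.23 ± 1.14 (SD, n = 2 arrays) at 14 h and -1.86 ± 0.16 at 24 h, the 28th and 68th lowest of 2922 genes. In limma's matched-hour fit it fell by 2.05 ± 0.39 score units (SE, 2 values, adjusted p = 0.0215). The call is lost without array A (-1.59, adjusted p = 0.385), with centring on 11 neighbouring spots (-1.09, adjusted p = 0.261), with all 4 comparisons in the fit (-0.68, adjusted p = 0.635), and in the conditioned-over-control reading (-0.46). Against 0 h the sign was the other way at 14 h: the arrays of MBC14 over MBN0 gave 3.0015 and -0.83, a mean of 1.92 ± 1.53 and the 51st highest gene. In MBC24 over MBN0 they gave -0.18 and 0.89, a mean of -0.54 ± 0.50. Subtracting the matched comparison from the one with 0 h, which share the conditioned RNA, gave an indirect MBN14 over MBN0 of 4.15 for SLC25A28 (6.04 on array A and 2.26 on array B) and an MBN24 over MBN0 of 1.33.

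SLC25A37, mitoferrin-1, is the second iron carrier of the inner membrane and was printed as 2 separate spot pairs that did not give one pattern. In the first pair the matched-hour arrays had opposite signs, -1.74 and 1.22 at 14 h and -2.21 and 0.62 at 24 h, as for SLC25A28. The second pair was negative on all 4 of those arrays, with -2.25 and -0.42 at 14 h and -3.26 and -2.66 at 24 h. Against 0 h the second pair was positive on all 4 arrays (2.63, 2.22, 1.03 and 2.23), while the first lay between -0.83 and 0.15. The second pair is thus large only in the conditioned-over-control reading, where its means were -1.33 and -2.96 at the matched hours and 2.43 and 1.63 against 0 h. With both pairs averaged, the matched-hour mean was -1.03 in the Cy5-over-Cy3 reading (limma, adjusted p = 0.159) and -1.34 in the other (adjusted p = 0.995). The labels do not say whether the pairs hold different clones. Slc25a37 had no promoter in the table.

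**Figure D2:**
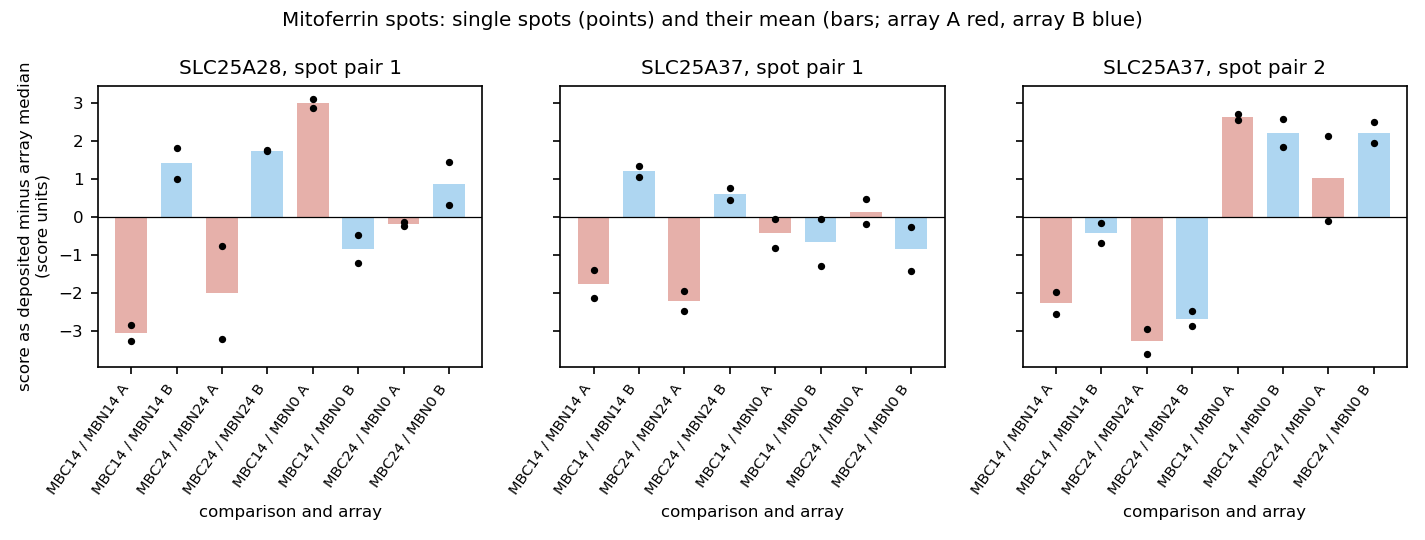
Centred deposited scores of each spot of the mitoferrin genes SLC25A28 and SLC25A37 on the 8 arrays (vertical axis, score units) as points, with the pair mean as a bar in red for array A and blue for array B. The spots of SLC25A28 change sign between arrays A and B at the matched hours, while the second pair of SLC25A37 stays below 0 at the matched hours and above 0 against 0 h on both arrays.

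The carriers that feed and drain ATP synthesis had matched-hour means below 0 in the Cy5-over-Cy3 reading, and none passed limma. SLC25A4 and SLC25A5 exchange ADP for ATP and SLC25A3 brings in phosphate. SLC25A4 scored -0.80 and 0.88 at 14 h and -0.35 and 2.08 at 24 h, with a matched-hour mean of -1.03 (adjusted p = 0.159). SLC25A5 scored 0.36 and 0.76 at 14 h and -1.08 and 1.94 at 24 h, with a mean of -0.86 (adjusted p = 0.288). At 24 h SLC25A5 passed the size rule used where there is 1 replicate, a mean over the 2 arrays of at least 1 in size with each array at least 0.5 in that direction (-1.51 ± 0.61, 145th lowest). SLC25A3 had a matched-hour mean of -0.72 (adjusted p = 0.324), but its 2 spot pairs gave -1.78 and -0.27 at 24 h. The signs of SLC25A4 and SLC25A5 turned in the conditioned-over-control reading, to 0.45 and 0.50. Against 0 h, SLC25A4 reached -2.03 on array A of MBC24 over MBN0 and -0.06 on array B, so the crossed arrays did not repeat one another, and SLC25A5 was -0.66 and -1.16.

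SLC25A12 and SLC25A29, 2 of the mitochondrial amino acid carriers, were at opposite ends of the comparisons with 0 h in the Cy5-over-Cy3 reading. SLC25A12, the aspartate-glutamate carrier of the malate-aspartate shuttle, scored 3.11 and -2.82 in MBC14 over MBN0 and 2.43 and -2.17 in MBC24 over MBN0. Its means were 2.97 ± 0.21 (SD, n = 2 arrays), the 3rd highest of 2922 genes, and 2.30 ± 0.18, the 15th highest. At the matched hours it stayed near 0, at 0.17 and 0.01, from deposited scores of -0.19 and -0.54 at 14 h and -0.81 and -0.82 at 24 h. SLC25A29, which carries basic amino acids, scored -2.39 and 2.82 in MBC14 over MBN0 and -3.40 and 2.00 in MBC24 over MBN0. Its means of -2.61 ± 0.30 and -2.70 ± 0.99 were the 9th and 12th lowest, while the matched-hour means were -0.40 and 0.15. The 2 comparisons share the MBN0 RNA, so they are not separate evidence. The derived control-medium values were of like size, 2.79 and 2.29 for SLC25A12 and -2.21 and -2.85 for SLC25A29 (MBN14 and MBN24 over MBN0, by subtraction). In the conditioned-over-control reading SLC25A12 had 0.15 and 0.13 against 0 h and SLC25A29 had 0.21 and -0.70. With centring on 11 neighbouring spots SLC25A29 in MBC24 over MBN0 was -0.43.

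Of the other carboxylate and nucleotide carriers, SLC25A24, SLC25A25 and SLC25A23 exchange ATP-Mg for phosphate. In MBC24 over MBN0, SLC25A24 scored -1.84 and 2.18, a mean of -2.01 ± 0.24 and the 57th lowest gene, and SLC25A25 scored -1.72 and 0.92, a mean of -1.32 ± 0.56. SLC25A23 had -0.13 there. With array B as deposited SLC25A24 was 0.17 and SLC25A25 -0.40. SLC25A24 was -0.61 and SLC25A25 -0.32 in MBC14 over MBN0, so neither passed the size rule at 14 h. SLC25A11, the oxoglutarate-malate carrier, scored 2.29 and 2.13 in MBC14 over MBN0. Both arrays were high with the dyes crossed, so its mean was 0.08 ± 3.12 in the Cy5-over-Cy3 reading and 2.21 ± 0.11 in the conditioned-over-control reading. SLC25A1, the citrate carrier, did not pass the size rule in either reading.

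SLC25A15, the ornithine carrier of the urea cycle, passed the size rule in MBC14 over MBN0 (-1.53 ± 0.90, from scores of -2.17 and 0.89) and had -0.84 in MBC24 over MBN0. SLC25A20, which brings acylcarnitines in for fatty acid oxidation, had 1.04 ± 0.29 in MBC14 over MBN14 and -1.10 ± 0.37 in MBC14 over MBN0. Its scores were 0.83 and -1.24 against the first reference and -0.84 and 1.36 against the second, so the sign of the MBC14 value depended on which control RNA it was set against. SLC25A26, the mitochondrial carrier of S-adenosylmethionine, had matched-hour means of -0.75 ± 0.14 at 14 h and 1.08 ± 0.65 at 24 h, and -1.11 ± 0.62 in MBC24 over MBN0. SLC25A34 had -1.09 ± 0.10 in MBC24 over MBN0. SLC25A51, the NAD carrier, passed only in the conditioned-over-control reading, with 1.01 ± 0.36 in MBC24 over MBN24. SLC25A39, which brings in glutathione, passed in none of the 4 comparisons in either reading with centring on the array median, and in MBC14 over MBN0 with centring on 51 neighbouring spots (1.32).

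As a class the 18 SLC25 carriers had medians of -0.30, -0.25, 0.03 and -0.45 (14 h and 24 h matched, then 14 h and 24 h against 0 h) in the Cy5-over-Cy3 reading. The medians of all 2922 genes were -0.04, -0.11, -0.04 and -0.03. In MBC24 over MBN0, 14 of the 18 lay below 0 (77.8%, beside 51.4% of all genes), and 10 of the 18 did in the conditioned-over-control reading (55.6%, beside 51.5%). In the conditioned-over-control reading the SLC25 medians were 0.11, -0.18, 0.24 and -0.21, beside 0.03, 0.03, 0.03 and -0.02 for all genes, so in MBC14 over MBN14 the sign of the class median turned with the reading.

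**Figure D3:**
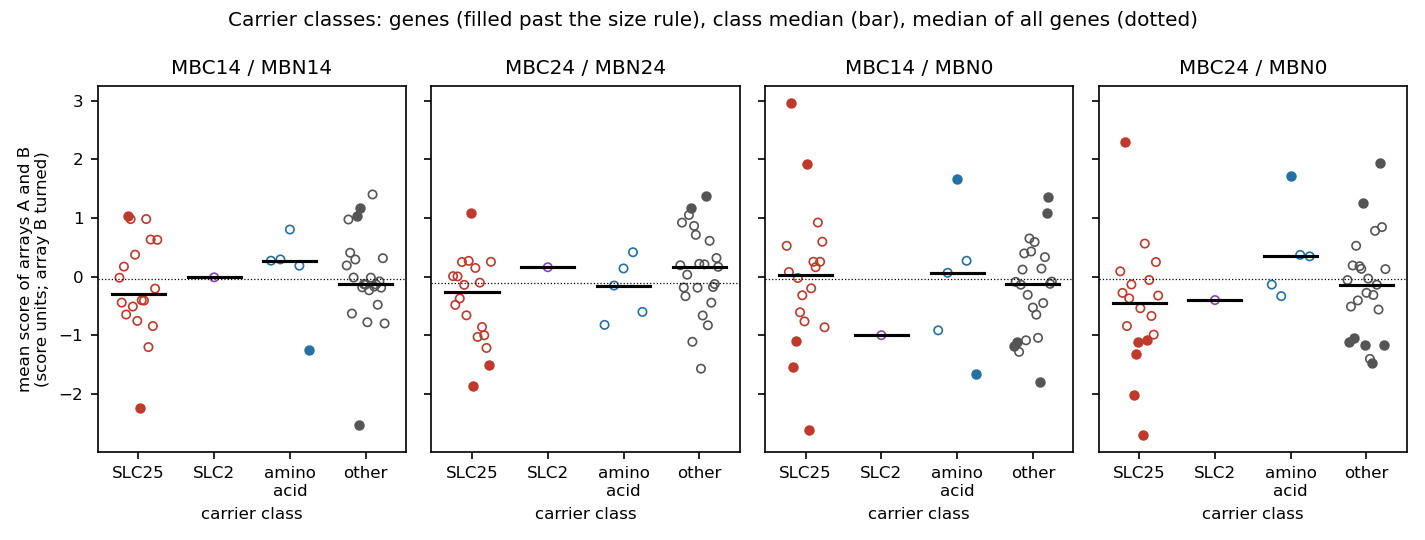
Mean score over arrays A and B (vertical axis, score units, Cy5-over-Cy3 reading) of every SLC gene by carrier class in each comparison, with the class median as a bar, the median of all genes as a dotted line and genes past the size rule filled. The SLC25 median is lowest in MBC24 over MBN0, at -0.45, and single genes of the SLC25, amino acid and other classes lie on both sides of 0 in every panel.

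SLC2A5 is the only hexose carrier of the set and moves fructose across the plasma membrane. Its deposited scores were -0.58 and -0.56 at the matched 14 h, 0.06 and -0.26 at the matched 24 h, -0.72 and 1.27 in MBC14 over MBN0 and -0.90 and -0.10 in MBC24 over MBN0. The means in the Cy5-over-Cy3 reading were -0.01, 0.16, -0.995 and -0.40, and it passed the size rule in none, though -1.01 passed in MBC14 over MBN0 with arrays scaled to one SD. Its 2 spot pairs differed, with -0.56 and -1.43 in MBC14 over MBN0. The other reading gave 0.27 there. The main glucose carriers of muscle, SLC2A1 and SLC2A4, were not analysed here. SLC2A4RG was positive on all 4 matched-hour arrays, with 1.39 and 0.67 at 14 h and 1.003 and 1.25 at 24 h. It therefore passed the size rule at both hours in the conditioned-over-control reading (1.03 ± 0.51 and 1.13 ± 0.18), and scored 0.36 and -0.13 in the other. Its mean in the conditioned-over-control fit was 1.08, with limma's adjusted p = 0.995.

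The 5 amino acid carriers were SLC1A3, SLC36A4, SLC38A2, SLC38A7 and SLC43A1. SLC38A2, the sodium-coupled carrier of small neutral amino acids that cells raise when amino acids run short, scored 2.50 and -0.82 in MBC14 over MBN0 and 2.31 and -1.12 in MBC24 over MBN0. Its means of 1.66 ± 1.18 and 1.71 ± 0.84 were the 86th and 68th highest. The matched-hour means were 0.80 and 0.14, from scores of 1.40 and -0.21 and of 0.01 and -0.27, so the larger scores were those against 0 h. With array B as deposited, SLC38A2 had 0.84 and 0.60 against 0 h.

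SLC43A1, a carrier of large neutral amino acids such as leucine, scored -0.88 and 1.60 in MBC14 over MBN14 and -0.99 and 2.31 in MBC14 over MBN0. Both means passed the size rule, at -1.24 ± 0.51 and -1.65 ± 0.93, and both use the MBC14 RNA. At 24 h the means were -0.60 against matched control and 0.35 against 0 h. Limma's matched-hour mean was -0.92 (adjusted p = 0.207), and 0.11 in the conditioned-over-control reading. SLC38A2 and SLC43A1 thus had opposite signs in both comparisons of the MBC14 RNA in the Cy5-over-Cy3 reading. Read as conditioned over control, both were positive there, with 0.59 and 0.84 for SLC38A2 and 0.36 and 0.66 for SLC43A1.

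SLC1A3, a glutamate and aspartate carrier, had -0.91 in MBC14 over MBN0 and -0.82 in MBC24 over MBN24, below the size rule. SLC38A7, the lysosomal exporter of glutamine, lay between 0.19 and 0.42 in the 4 comparisons, and SLC36A4 between -0.33 and 0.30. The medians of the class were 0.27, -0.15, 0.07 and 0.35 in the Cy5-over-Cy3 reading. They rest on 5 genes of different substrates.

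SLC35B1 exchanges ATP for ADP across the membrane of the endoplasmic reticulum. It was the lowest SLC gene in MBC14 over MBN14 in the Cy5-over-Cy3 reading. In the other reading SLC35B4 was the lowest there, at -1.37, and SLC35B1 had -0.999. The scores of SLC35B1 were -3.53 and 1.53 at 14 h and -2.11 and 0.11 at 24 h, so array B of MBC24 over MBN24 carried little. The means were -2.53 ± 1.41, the 14th lowest of 2922 genes, and -1.11 ± 1.42. In limma's matched-hour fit it fell by 1.82 ± 0.45 score units (adjusted p = 0.0496), just inside the threshold. The call is lost without array A (-0.82), with centring on 51 neighbouring spots (-1.28, adjusted p = 0.0986), with arrays scaled to one SD (-1.80, adjusted p = 0.0636), with all 4 comparisons in the fit (-1.14), and in the conditioned-over-control reading (-1.001). It is also lost with centring on 11 neighbouring spots. Against 0 h the arrays gave 0.21 and 2.38 at 14 h and 0.72 and 0.36 at 24 h.

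The other SLC35 carriers bring nucleotide sugars and related donors into the Golgi and endoplasmic reticulum. SLC35A4 scored 1.03 and -1.04 at the matched 14 h and 1.60 and -0.74 at 24 h, and was the 1 SLC gene past the size rule upward at both matched hours in the Cy5-over-Cy3 reading (-0.0024 and 0.43 in the other). Its limma mean was 1.10 (adjusted p = 0.128). SLC35B2, which carries the sulfate donor PAPS, had 1.18 ± 0.04 at 14 h and 0.87 ± 0.34 at 24 h, with a limma mean of 1.02 (adjusted p = 0.159). These values lie opposite in sign to SLC35B1, and neither gene passed limma. SLC35B4 had 1.26 ± 0.33 in MBC24 over MBN0 in the Cy5-over-Cy3 reading. Its matched-hour scores were -1.55 and -1.19 at 14 h and 1.91 and 0.49 at 24 h, so in the conditioned-over-control reading it had -1.37 ± 0.26 at 14 h. SLC35E2B had -1.16 ± 0.63 in MBC24 over MBN0, and 1.201 ± 0.61 in MBC14 over MBN0 in the conditioned-over-control reading.

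**Figure D4:**
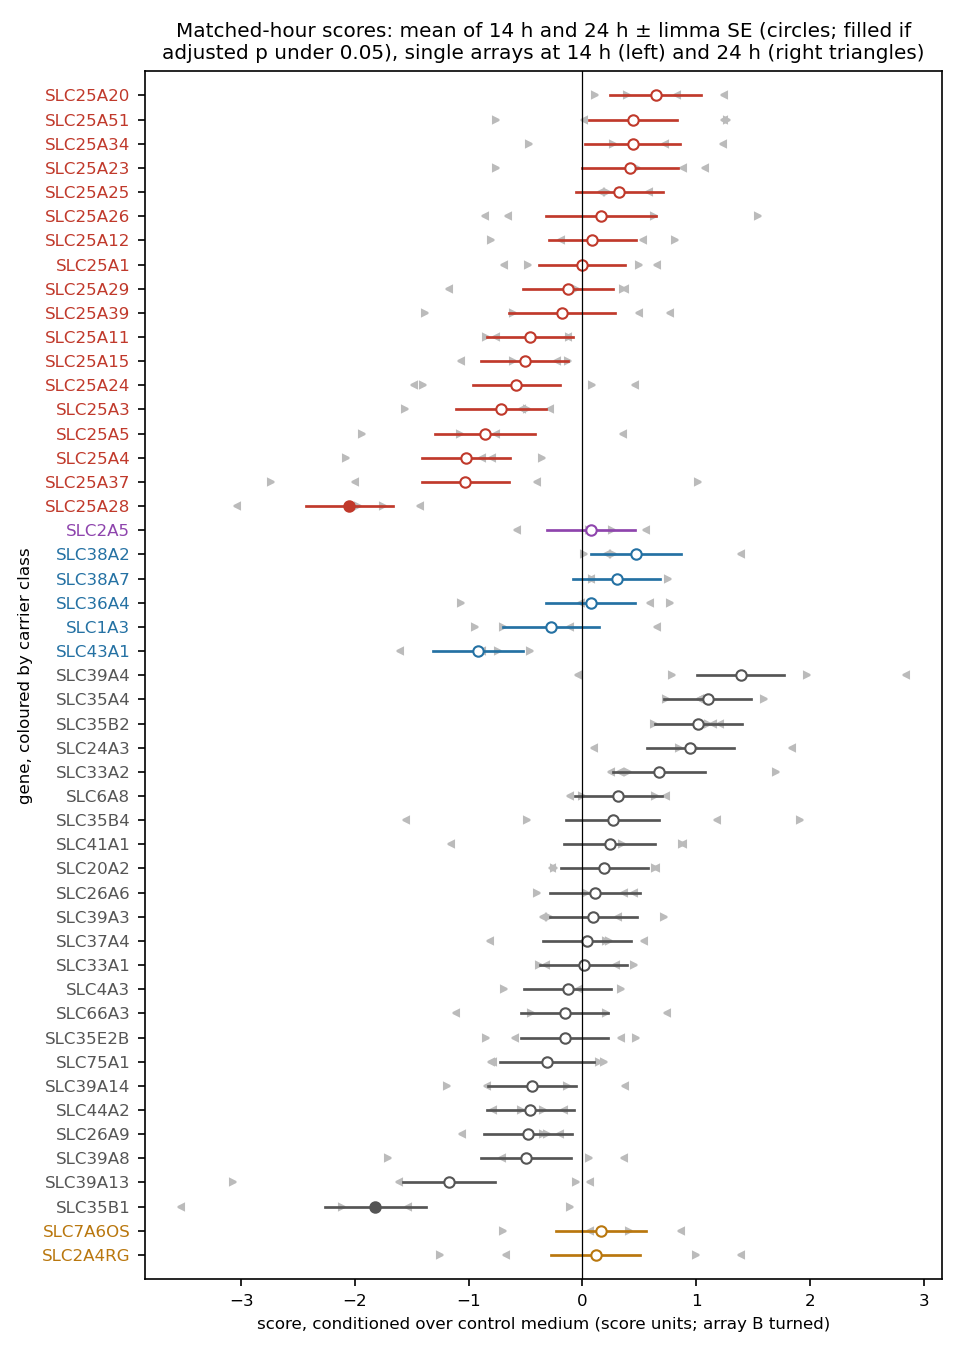
Matched-hour mean of the SLC genes (horizontal axis, score units, Cy5-over-Cy3 reading) with its limma SE as circle and bar, in order of size within each class, and the 4 single arrays as grey triangles pointing left (14 h) or right (24 h). SLC25A28 and SLC35B1, filled because they passed the adjusted threshold, lie at the low end at -2.05 and -1.82, and SLC39A4 at the high end at 1.39.

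In the Cy5-over-Cy3 reading, a zinc carrier of family SLC39 had the highest SLC mean at both matched hours. SLC39A4, a zinc importer of the plasma membrane, scored 2.84 and 0.04 at the matched 14 h and 0.79 and -1.98 at 24 h. At each hour 1 array carried most of the value, array A at 14 h and array B at 24 h. Its means were 1.40 ± 2.04 and 1.38 ± 0.84, and limma gave 1.39 (adjusted p = 0.0682), which became -0.08 with centring on 11 neighbouring spots. With array B as deposited its means were 1.44 and -0.60. Against 0 h SLC39A4 was low at 14 h, with scores of -2.43 and 1.15 and a mean of -1.79 ± 0.91. SLC39A13, which moves zinc out of vesicles of the secretory pathway, had -0.77 and -1.57 at the matched hours (limma mean -1.17, adjusted p = 0.125), with -3.07 on array A and 0.06 on array B at 24 h. SLC39A3 had -1.46 ± 0.40 in MBC24 over MBN0. SLC39A8 and SLC39A14 passed the size rule in no comparison in either reading with centring on the array median. SLC39A14 reached -2.89 on array A of MBC24 over MBN0 against -0.09 on array B. With centring on 51 neighbouring spots SLC39A14 passed in MBC24 over MBN24, at -1.18.

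Among the ion carriers, SLC4A3, a chloride-bicarbonate exchanger of excitable tissue, scored 1.06 and -1.11 in MBC14 over MBN0 and 2.58 and -1.29 in MBC24 over MBN0. Its means were 1.09 ± 0.04 and 1.94 ± 0.91, the 270th and 39th highest, beside -0.08 and -0.17 at the matched hours. The conditioned-over-control reading gave -0.0262 and 0.65 against 0 h. In the Cy5-over-Cy3 reading, centring on 51 neighbouring spots gave SLC4A3 0.69 and 1.75 against 0 h, and only 1.75 passed the size rule. Centring on 11 gave 0.56 and 0.99, and neither passed. SLC26A6, an anion exchanger, had -1.10 ± 0.54 in MBC14 over MBN0. SLC26A9, a chloride carrier, was negative on all 4 arrays against 0 h (-3.28, -0.72, -1.12 and -1.51). It therefore passed only in the conditioned-over-control reading, at -2.00 ± 1.81 and -1.32 ± 0.27. SLC24A3, an exchanger of sodium for calcium and potassium, had 0.98 and 0.92 at the matched hours (limma mean 0.95, adjusted p = 0.177) and -1.12 ± 0.26 in MBC24 over MBN0. Its 2 spots disagreed on array A of MBC14 over MBN14, at -1.38 and 5.06, and had -0.08 and -0.13 on array B. SLC20A2, a phosphate importer, had -1.18 ± 0.41 in MBC14 over MBN0. SLC41A1, a magnesium carrier, passed only in the conditioned-over-control reading, with 1.02 ± 0.19 in MBC14 over MBN14.

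SLC6A8, the creatine carrier that supplies the phosphocreatine store of muscle, scored -1.61 and 0.70 in MBC24 over MBN0, a mean of -1.16 ± 0.64. At the matched hours its mean was 0.32 at both times, from scores of -0.11 and -0.74 at 14 h and 0.64 and 0.0030 at 24 h. With centring on 51 and 11 neighbouring spots SLC6A8 passed the size rule upward in MBC24 over MBN24, at 1.12 and 1.18. These settings gave -0.79 and -0.51 in MBC24 over MBN0, which did not pass. SLC33A1, which carries acetyl-CoA into the endoplasmic reticulum, had -1.04 ± 0.65 in MBC24 over MBN0. SLC66A3 had 1.35 ± 0.68 in MBC14 over MBN0 and 0.85 in MBC24 over MBN0. SLC33A2 passed only in the conditioned-over-control reading, at -1.13 ± 0.17 in MBC14 over MBN0. SLC7A6OS, which is no carrier, had -1.25 ± 0.47 in MBC24 over MBN0. The choline carrier SLC44A2, the glucose 6-phosphate carrier SLC37A4 and SLC75A1 passed the size rule in no comparison in either reading with centring on the array median. SLC75A1 passed in MBC14 over MBN14 with local centring, at -1.38 (51 spots) and -1.01 (11 spots). The medians of the 23 other carriers were -0.13, 0.17, -0.12 and -0.14.

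Counted by the size rule in the Cy5-over-Cy3 reading, 3 SLC genes were higher and 3 lower in MBC14 over MBN14, 12.2% of 49, beside 19.9% of all genes (9.10% higher and 10.8% lower). In MBC24 over MBN24 there were 3 higher and 2 lower, 10.2%, beside 17.6% (7.94% and 9.69%). In MBC14 over MBN0 there were 5 higher and 7 lower, 24.5%, beside 15.7% (7.29% and 8.38%). In MBC24 over MBN0 there were 4 higher and 11 lower, 30.6%, beside 19.3% (8.38% and 10.9%). In this reading and centring the SLC share was below that of all genes at the matched hours and above it against 0 h, with no test of either difference, and other settings turned this order. With centring on 51 neighbouring spots MBC24 over MBN24 gave 9 of 49 SLC genes (18.4%) beside 467 of all 2922 genes, a smaller share. The count in MBC24 over MBN0 was 7 genes (14.3% beside 15.3% of all genes) with 51 neighbouring spots and 4 genes (8.16% beside 12.9%) with 11.

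Of the 11 lower genes in MBC24 over MBN0, 5 were SLC25 carriers (SLC25A24, SLC25A25, SLC25A26, SLC25A29 and SLC25A34), a class that makes up 36.7% of the SLC genes. With centring on 51 neighbouring spots SLC25A26 (-0.78) and SLC25A34 (-0.36) did not pass there. With 11, only SLC25A24 of these 5 passed, while SLC25A4 did as well (-1.46). With array B as deposited 0 SLC25 carriers passed there. In the conditioned-over-control reading the counts were 2 higher and 1 lower in MBC14 over MBN14, 6.12% of 49, where 6.37% of all genes passed (3.56% higher, 2.81% lower). They were 2 and 1 in MBC24 over MBN24, 6.12%, beside 6.02% (3.70% and 2.33%). Against 0 h they were 2 and 2 in MBC14 over MBN0, 8.16%, beside 10.3% (5.61% and 4.72%), and 0 and 1 in MBC24 over MBN0, 2.04%, beside 6.84% (3.11% and 3.73%). In the Cy5-over-Cy3 reading 27 SLC genes passed in at least 1 comparison (55.1%, beside 50.7% of all genes) and 22 in none, and 15 passed in none in either reading (30.6%, beside 35.9%). Against 0 h, in 2 comparisons that share the MBN0 RNA, 3 genes were higher in both (SLC25A12, SLC38A2 and SLC4A3; 6.12%, beside 2.16% of all genes). There, 1 was lower in both (SLC25A29, 2.04%, beside 2.87%). With centring on 51 or on 11 neighbouring spots SLC4A3 no longer passed in both, and with 11 SLC25A29 did not pass in MBC24 over MBN0. At both matched hours 1 gene was higher (SLC35A4; 2.04%, beside 3.76%) and 1 lower (SLC25A28; 2.04%, beside 2.91%).

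**Figure D5:**
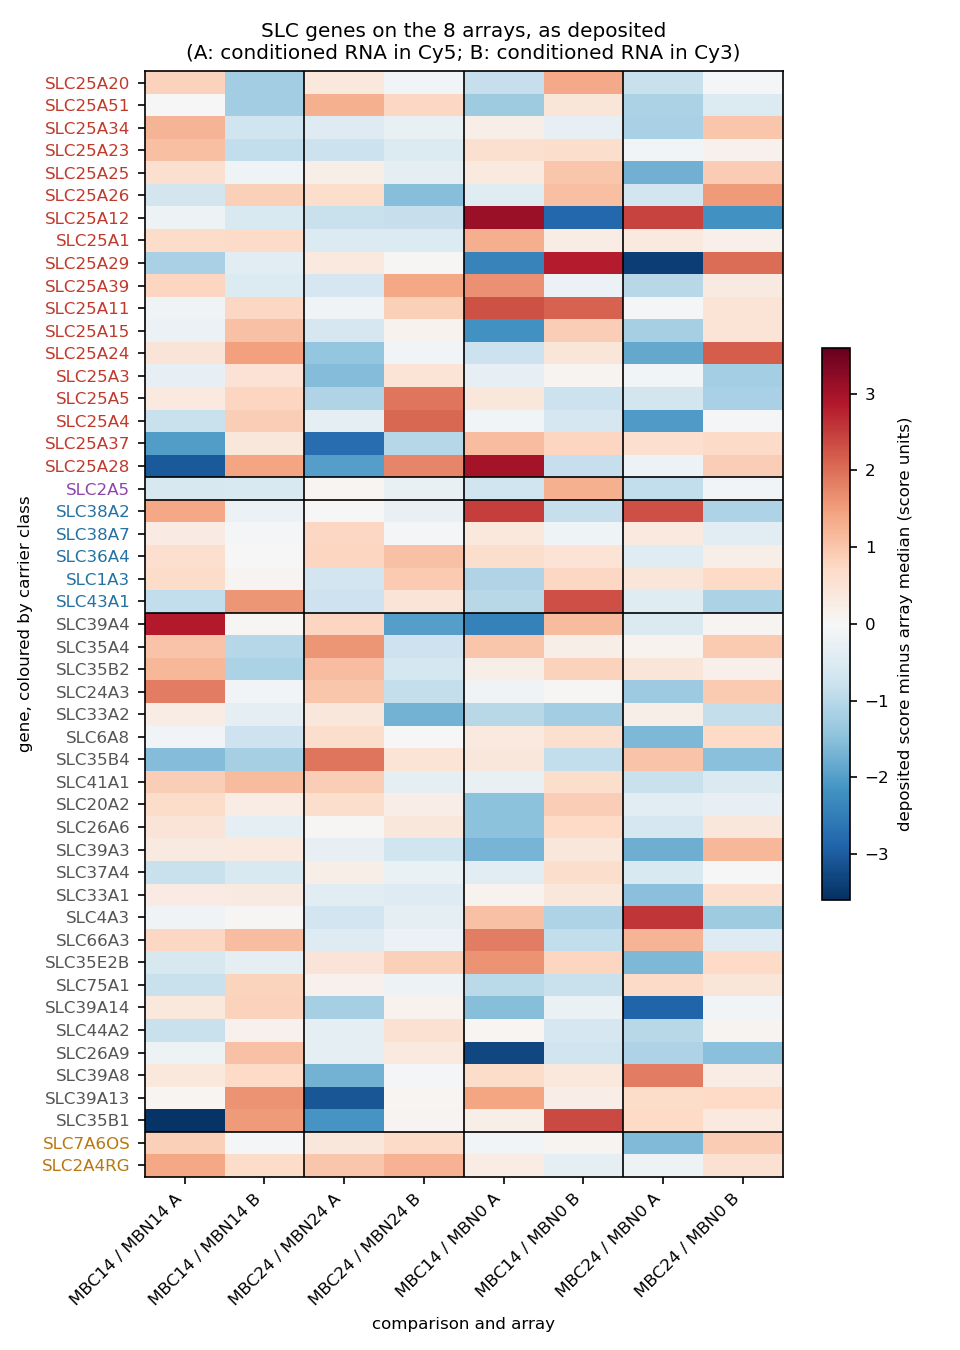
Centred deposited score of every SLC gene (rows, grouped by class) on each of the 8 arrays (columns, arrays A and B of a comparison side by side), on a colour scale in score units. SLC25A12 and SLC25A29 show strong opposite colours on arrays A and B of both comparisons with 0 h, and SLC25A28 at both matched hours.

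The 2 spots of a pair are on the same array and give a measure of noise. Over the 53 SLC spot pairs the correlation between the spots was 0.37 to 0.75 per array, and the root mean square of the SD within a pair was 0.63 to 1.06 score units. Pairs varied: SLC25A29 had a mean SD of 0.29 and SLC25A28 of 0.53, while SLC25A4 had 1.22 and SLC39A3 1.25. The spots of the genes called by limma disagreed on array A of MBC24 over MBN24. They were -0.74 and -3.21 for SLC25A28, and -0.50 and -3.72 for SLC35B1. On array B of that comparison they were 1.74 and 1.77 for SLC25A28, and 0.60 and -0.39 for SLC35B1.

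The genes that work beside these carriers did not pass the matched-hour limma test in either reading, where 5.20% and 0.00% of all genes did. In the list of outer mitochondrial membrane channels, the pyruvate carrier and protein import, which also held UCP2 and MTCH1, 0 of 19 measured genes were called. The largest was TIMM17B, an inner membrane import subunit, at -1.02 ± 0.51 (SE, limma, adjusted p = 0.281). By the size rule in the Cy5-over-Cy3 reading, 0 of the 19 were higher and 3 lower at the matched 14 h, and 0 and 2 at 24 h. The shares of all genes were 9.10% higher and 10.8% lower at 14 h, and 7.94% and 9.69% at 24 h. Against 0 h, 4 of the 19 were higher and 2 lower at 14 h, and 5 and 2 at 24 h. There the shares of all genes were 7.29% and 8.38% at 14 h, and 8.38% and 10.9% at 24 h. The outer membrane channel VDAC2 had 2.15 in MBC14 over MBN0. None of 7 measured amino acid response genes was called, with ATF4, their leading transcription factor, at -1.24 ± 0.41 (adjusted p = 0.117). None of 4 measured glucose uptake partners was called, with the glycolytic kinase HK1 at 0.97 ± 0.40 (adjusted p = 0.192). Of the transporters that do split ATP, 0 of 3 pumps and 0 of 5 ABC genes were called. ABCF1, an ABC protein of translation and not of transport, was the largest at -1.36 ± 0.45 (adjusted p = 0.117). These lists were made with earlier results of these data known.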

How the data were processed

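The authors deposited 1 signed score per spot and array for 8 spotted arrays. The scale, log base, background correction, normalization and direction of these deposited scores are not given in the sources used here, and no fold changes are stated. Per the labels, arrays A and B of a comparison carry the same RNAs with Cy3 and Cy5 crossed. For MBC14 over MBN0, the labelling text of array B contradicts its dye field, and the dye field was followed. Signal over background is unknown, and precision is limited by the number of arrays.

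Scores were centred on the median of their array, array B was turned, and the spots of a gene were averaged (platform annotation of 2016; 106 spots with several genes and 3268 unnamed here were left out). The test plan assumed that symbols starting SLC2 and SLC7 were carriers; SLC2A4RG and SLC7A6OS were set apart after the annotation was read. The size rule has no test, since each comparison has 1 replicate. The matched-hour test was limma 3.58.1 in R 4.3.3 (lmFit and eBayes, intercept only, threshold 0.05, all genes fitted). It was also run on simulated data with known shifts, whose variances were drawn from the fit to these scores. Alternatives were the reading of array B, centring, scaling, spot handling, thresholds, single arrays and the replicate block. Genes described in full are those called in limma, the 4 largest matched-hour means per class, those past the size rule the same way in 2 comparisons, the highest and lowest per comparison, and all members of classes of 4 or fewer; further members are named to account for all. The members and lists were chosen with earlier results of these data known.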

Additional observations from a re-analysis of the deposited data

Results flagged for a closer look

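Some SLC genes had array means of opposite sign at the matched hours, with arrays A and B on one side of 0 at 14 h and both on the other at 24 h. The differences were not tested. In the Cy5-over-Cy3 reading 3 of 49 SLC genes did so (6.12%, beside 7.36% of all genes). The difference, 24 h minus 14 h, was 1.84 score units for SLC25A26, -1.63 for SLC25A39 and 0.96 for SLC75A1. In the conditioned-over-control reading 10 of 49 did so (20.4%, beside 10.3% of all genes). The differences were 2.57 for SLC35B4, 1.13 for SLC35E2B, 0.98 for SLC25A29 and 0.74 for SLC6A8 upward. Downward they were -1.72 for SLC25A24, -1.42 for SLC39A8, -1.26 for SLC66A3, -1.17 for SLC25A1, -0.83 for SLC39A3 and -0.72 for SLC33A1. Groups of 2 arrays are too small for a check of single arrays that stand apart.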

How the results depend on the processing

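Size rule counts of SLC genes, 6 and 5 at the matched hours (14 h, then 24 h) and 12 and 15 against 0 h, became 3, 3, 4 and 1 with array B as deposited and 2, 1, 6 and 5 at a threshold of 1.58 (log2 of 3). At 0.58 the first 3 became 13, 14 and 20. Centring on 11 neighbouring spots, or only genes with agreeing spots, gave 3, 3 and, in MBC24 over MBN0, 4 or 8. Centring on 51 gave 9 in MBC24 over MBN24 and 7 in MBC24 over MBN0. On single arrays, which pass more easily by construction, the counts lay between 13 and 14, 10 and 14, 11 and 23, and 13 and 23.

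The matched-hour limma calls among SLC genes, 2, were 0 with array B as deposited, centring on 11 spots, all 4 comparisons in the fit or single spots, 1 with arrays scaled or agreeing spots, 4 with arrays entered singly and the comparison as a random block, and 0 to 3 without array A or B. With the array letter as a replicate block they were 2. The correlation was that of the fit without the letter, and the letter marks the dye orientation. That correlation, between arrays of a comparison, was -0.29, and a value below 0 makes the SE smaller than for independent arrays. The random block setting called 330 of all 2922 genes, beside 152 in the main fit. The other settings gave 2 SLC calls each, with SLC35A4 in place of SLC35B1 under centring on 51 spots. Agreeing spots left 25 SLC genes in this test.

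Class medians moved as follows. With array B as deposited SLC25 in MBC14 over MBN14 became 0.11, SLC2A5 in MBC14 over MBN0 0.27 and the amino acid carriers there 0.55. With agreeing spots, which leave 1 amino acid carrier (SLC38A2), the value of that class was 0.80 (MBC14 over MBN14), 1.66 and 1.71 (against 0 h at 14 h and 24 h). The other carriers in MBC14 over MBN14 became 0.24 with agreeing spots, which leave 10 of them, and 0.16 with centring on 11 spots. On single arrays the medians lay from -0.44 to 0.29 for SLC25 in MBC14 over MBN0, from -0.48 to 0.39 for the amino acid carriers there, from -0.17 to 0.29 for the other carriers in MBC14 over MBN14 and from -0.51 to -0.17 in MBC24 over MBN0.

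Matched-hour means changed sign as follows. With array B as deposited: SLC1A3 0.25, SLC25A12 -0.59, SLC25A4 0.45, SLC25A5 0.50, SLC26A9 0.23, SLC2A5 -0.33 and SLC43A1 0.11. With centring on 11 spots: SLC1A3 0.052, SLC25A12 -0.31, SLC25A29 0.61, SLC26A9 0.23, SLC2A4RG -0.18, SLC2A5 -0.16, SLC38A7 -0.14, SLC39A4 -0.082 and SLC7A6OS -0.22. With centring on 51: SLC25A29 0.20, SLC2A4RG -0.14 and SLC7A6OS -0.0295. With all 4 comparisons: SLC2A5 -0.31, SLC4A3 0.69 and SLC7A6OS -0.26. With the spot median SLC2A5 became -0.023. On single arrays SLC25A12 ranged from -0.50 to 0.68, SLC25A29 from -0.41 to 0.16, SLC25A37 from -2.37 to 0.31, SLC2A4RG from -0.96 to 1.197, SLC2A5 from -0.26 to 0.41, SLC4A3 from -0.41 to 0.16 and SLC7A6OS from -0.32 to 0.64. SLC25A37 was called without array B (limma, adjusted p = 0.0176; 0.112 to 0.995 under its other alternatives). Each spot pair of SLC25A37 alone, an alternative chosen after seeing the data, gave -1.45 and -0.61. With agreeing spots only there is no value for SLC2A5, nor for 10 further named genes. The cause of these changes was not tested.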
